A study of Saccharomyces pastorianus with 12 samples.

Results

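MXR1 and MXR2 encode the methionine sulfoxide reductases of yeast, enzymes that turn oxidised methionine back into methionine. Both genes were found by their symbol in the probe annotation, with 1 probe for each, so 2 of the 6051 rows measured (named genes and unnamed probes) are described here. They were selected on the difference in level between the 1 h and 0 h arrays, already known for MXR2, and that difference is therefore given as a description with no test.

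The samples came from a production-scale lager fermentation with lager brewing yeast, Saccharomyces pastorianus (synonym Saccharomyces carlsbergensis), a hybrid that carries chromosomes of S. cerevisiae and of a cold-tolerant relative. Total RNA from 12 times (0, 1, 24, 48, 72, 96, 120, 144, 168, 192, 240 and 264 h) was hybridised, with 1 array at each time and no other strain, treatment or untreated culture. For tests, the times from 24 h on were pooled into 3 windows, with 3 arrays each for 24 to 72 h and 96 to 144 h and 4 for 168 to 264 h. Nothing in the labels says whether the samples came from more than 1 fermentation, so the p-values below speak for these samples, and the spread within a window holds real change over time as well as array noise.

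When reactive oxygen oxidises methionine, free or within a protein, the sulfoxide arises in an S and an R form. Yeast keeps an enzyme for each. Mxr1 reduces the S form and Mxr2, a mitochondrial protein, the R form in proteins, while the product of YKL069W reduces free methionine-R-sulfoxide. The electrons come from thioredoxin, which thioredoxin reductase recharges from NADPH. Mxr1 has a further role in brewing, because it also reduces dimethyl sulfoxide from malt to dimethyl sulfide, a flavour compound of lager.

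The probes carry S. cerevisiae gene names, and copies from each parent of the hybrid were not resolved. Array medians lay between 762 and 10142 intensity units, so intensities were compared as levels, the log2 distance from the median of the same array. A level is relative to the other transcripts of its sample, and less RNA per cell cannot be told apart from fewer cells that carry the transcript. The 240 h array stood apart, with a standard deviation of 0.67 log2 units against 0.86 to 1.56 on the others, and its rank (Spearman) correlations with the rest, taken across genes, had a median of 0.252. Background signal came with none of the values, and probes differ in brightness for the same amount of RNA, so the level of MXR1 is not set against that of MXR2.

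MXR2 was far higher in the sample at 0 h than at any later time. Its deposited intensity was 56914 units at 0 h, although the median of that array was 2066. It was 5743 at 1 h, 22066 at 24 h, 10385 at 48 h, 10124 at 72 h and 19891 at 96 h, on arrays whose medians ran from 4646 to 10142. From 120 h on the intensities were 7968, 1668, 1622, 3112, 2748 and 2012, on arrays with medians from 762 to 3666. The 0 h sample thus gave the brightest MXR2 signal of the series on one of the dimmer arrays.

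**Figure D1:**
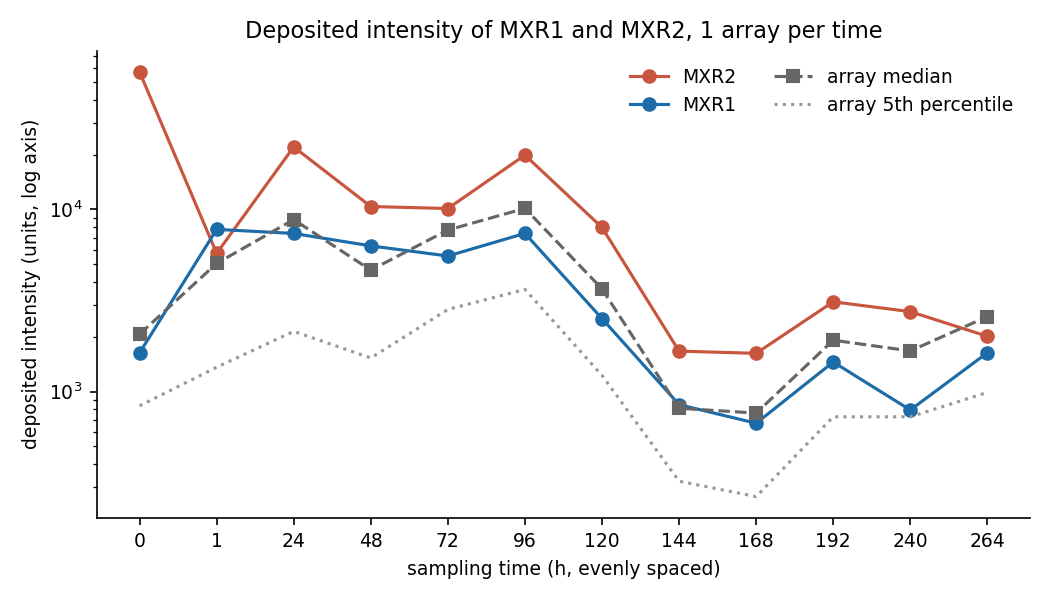
Deposited intensity (log axis) of MXR2 and MXR1 at each of the 12 times, with the median and the 5th percentile of each array, 1 array per time. MXR2 reached 56914 units at 0 h, where the array median was 2066, while MXR1 followed the array median more closely, at 1632 units at 0 h.

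As levels, MXR2 stood at 4.78 at 0 h, 0.18 at 1 h, 1.33 at 24 h, 1.16 at 48 h, 0.39 at 72 h and 0.97 at 96 h. It then stood at 1.12 at 120 h, 1.04 at 144 h, 1.09 at 168 h, 0.70 at 192 h, 0.72 at 240 h and -0.36 at 264 h. It was above the array median on 11 of the 12 arrays, the exception being 264 h. At 0 h only 4 rows were brighter.

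MXR2 was 24.3-fold lower at 1 h than at 0 h, with a level of 0.18 against 4.78, and 27.7-fold lower after quantile normalization, which gives all arrays the same distribution. The size depended on the scaling: the log2 difference, -4.60 median-centred, was -3.31 in the values as deposited, -5.37 after normexp background correction and -5.70 with equal median absolute deviations. No other row had so large a decrease between these samples. Of 6051 rows, 4.15% were at least 4-fold lower at 1 h than at 0 h and 9.55% at least 4-fold higher. MXR2 is among the rows that were lower because it was chosen so, and MXR1 passed 4-fold in neither direction. With 1 array at each of these times there is no replicate check.

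The same 0 h value, on which MXR2 was selected, can be set against every later sample as a description. The level of MXR2 at 0 h was 3.46 log2 units above the highest of the 11 others, which was that at 24 h. Among the 6048 rows with a value on all arrays, 383 (6.33%) were highest at 0 h, and the next largest such gap was 1.90, for FIG2, a cell wall adhesin of mating cells that was named after its values were seen. After quantile normalization the gap of MXR2, then to the level at 96 h, was 3.62 and again 1 row, MXR2 itself, reached it. This rank rests on the value that chose the gene and adds no independent evidence.

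**Figure D2:**
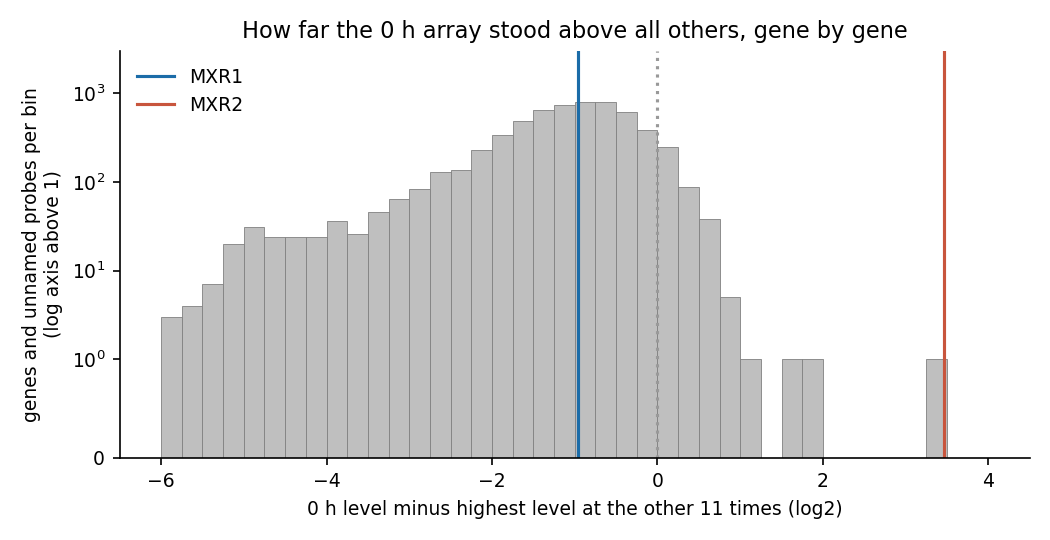
Level at 0 h minus the highest level at the 11 other times (log2), counted over rows with a value on all 12 arrays (log axis above 1). MXR2, selected on its 0 h value, stands alone at the right at 3.46, and MXR1, at -0.96, lies within the bulk of the distribution.

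MXR1 showed no such peak. Its intensity was 1632 units at 0 h, 7778 at 1 h, 7386 at 24 h, 6312 at 48 h, 5554 at 72 h and 7392 at 96 h. Later it was 2516 at 120 h, 848 at 144 h, 670 at 168 h, 1453 at 192 h, 792 at 240 h and 1634 at 264 h. Most of this movement was that of the arrays as a whole.

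As levels, MXR1 stood at -0.34 at 0 h, 0.62 at 1 h, -0.25 at 24 h, 0.44 at 48 h, -0.48 at 72 h and -0.46 at 96 h. It then stood at -0.54 at 120 h, 0.07 at 144 h, -0.18 at 168 h, -0.40 at 192 h, -1.08 at 240 h and -0.66 at 264 h. It was above the array median at 1, 48 and 144 h, 3 of the 12 arrays. The lowest level, at 240 h, came from the array with the narrowest signal, and there the intensity was 1.09 times the 5th percentile of the array, so that value lay close to the dim end, where the background is unknown. MXR1 was 1.94-fold higher at 1 h than at 0 h (level 0.62 against -0.34), and 23.7% of rows had a larger increase.

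**Figure D3:**
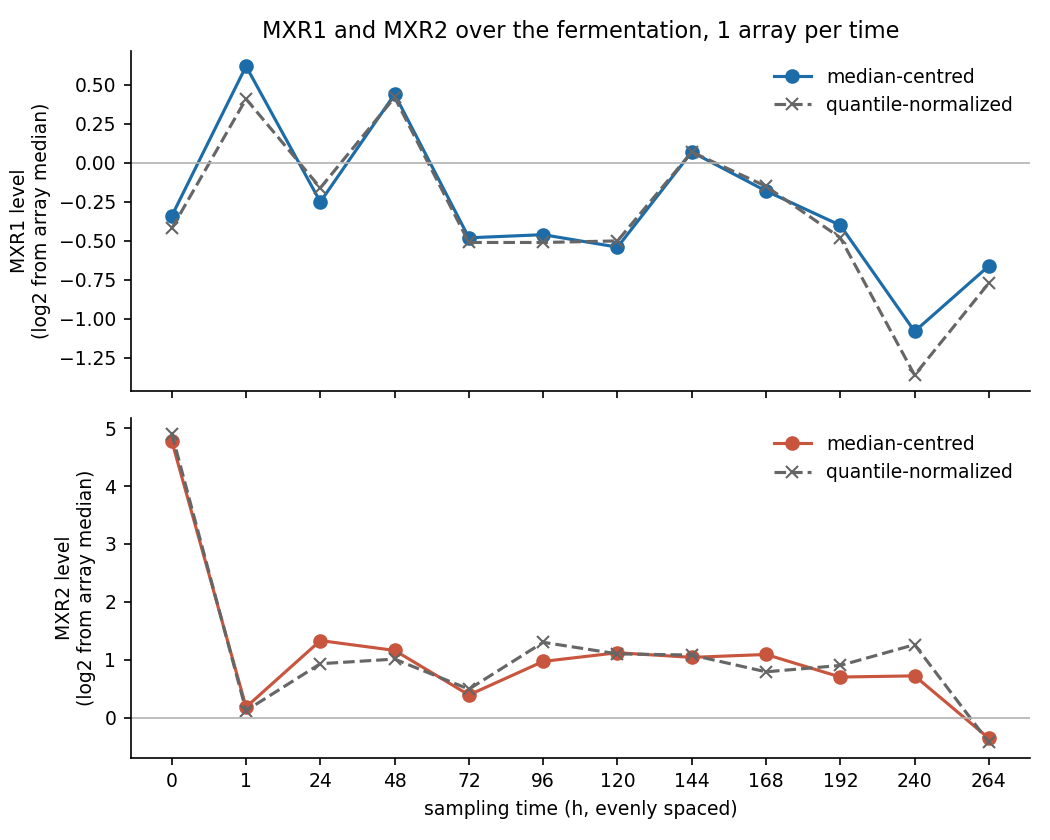
Level of MXR1 (top) and MXR2 (bottom) at each time, as log2 distance from the array median, median-centred and after quantile normalization, with 1 array per time and separate vertical scales. MXR1 stays between -1.08 and 0.62 in median-centred values, and MXR2 is at 4.78 at 0 h and between -0.36 and 1.33 afterwards.

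Ordered by level, the MXR1 times from highest to lowest were 1, 48, 144, 168, 24, 0, 192, 96, 72, 120, 264 and 240 h. The gaps between neighbours in that order ran from 0.02 to 0.42, the largest between 264 and 240 h. The residual standard deviation of MXR1 within the windows was 0.40 log2 units. It measures the spread of single values, and a difference between arrays spreads more, so it sets no threshold for these gaps. For MXR2 the order was 0, 24, 48, 120, 168, 144, 96, 240, 192, 72, 1 and 264 h. There the gap was 3.46 after 0 h, 0.54 between 1 and 264 h and at most 0.31 between other neighbours. Both orders are of median-centred levels and depend on the scaling. After quantile normalization MXR2 was highest after 0 h at 96 h (1.30) and 240 h (1.26), with 0.93 at 24 h. The times 72, 1 and 264 h were again the lowest. The residual standard deviation of MXR2 was 0.49, from windows that hold neither 0 nor 1 h.

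From 24 h on no change between windows beyond the spread within them was detected for either gene. MXR1 had a mean level of -0.58 ± 0.38 (SD, n = 4) at 168 to 264 h, -0.31 ± 0.33 (n = 3) at 96 to 144 h and -0.10 ± 0.48 (n = 3) at 24 to 72 h. The difference of 168 to 264 h from 24 to 72 h was -0.48 (SE 0.39, 95% interval -1.31 to 0.35; limma adjusted p = 0.550, unadjusted p = 0.235). Those of 96 to 144 h from 24 to 72 h and of 168 to 264 h from 96 to 144 h were -0.21 (interval -1.10 to 0.67) and -0.27 (interval -1.10 to 0.56). The levels of the windows overlapped, and without the 48 h array, on which MXR1 was highest in this span, the first difference was -0.22.

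MXR2 had a mean level of 0.54 ± 0.62 (SD, n = 4) at 168 to 264 h, 1.05 ± 0.08 (n = 3) at 96 to 144 h and 0.96 ± 0.50 (n = 3) at 24 to 72 h. Its 3 samples from 96 to 144 h lay within 0.97 to 1.12, the tightest window for either gene. The difference of 168 to 264 h from 24 to 72 h was -0.42 (SE 0.42, interval -1.30 to 0.46; limma adjusted p = 0.630, unadjusted p = 0.327), and -0.12 without the 264 h array, the one sample in which MXR2 fell below the array median. That of 96 to 144 h from 24 to 72 h was 0.09 (interval -0.86 to 1.03) and that of 168 to 264 h from 96 to 144 h -0.51 (interval -1.39 to 0.37).

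Among all 6051 rows, 3.82% were lower and 0.43% higher at 168 to 264 h than at 24 to 72 h at a limma adjusted p under 0.05, and of MXR1 and MXR2 0 of 2 were. In the 2 other window comparisons 0% passed in either direction, although an unadjusted p under 0.05 was reached upward by 213 rows and downward by 409 for 96 to 144 h against 24 to 72 h, and by 43 and 96 for 168 to 264 h against 96 to 144 h. The linear model without moderation called 0 rows in all 3 window comparisons. The intervals of MXR1 and MXR2 are wide enough that falls of 1.31 and 1.30 log2 units between 24 to 72 h and 168 to 264 h lie within them.

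**Figure D4:**
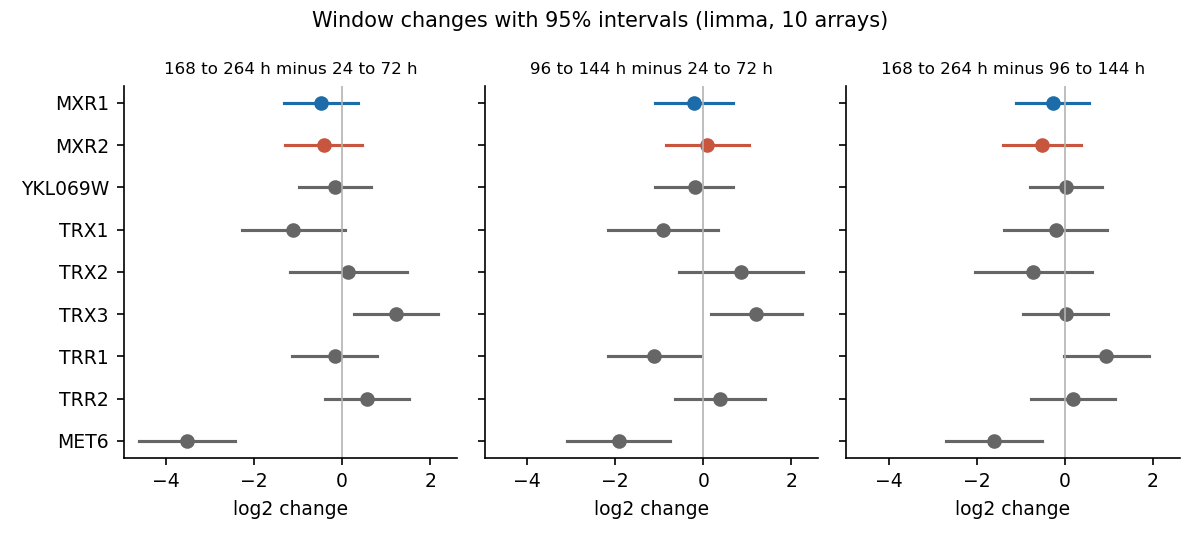
Log2 change between windows with 95% intervals from limma on the 10 arrays from 24 to 264 h, for MXR1, MXR2, YKL069W, the thioredoxin system and MET6. The intervals of MXR1 and MXR2 include 0 in all 3 comparisons, while MET6 was -3.53 at 168 to 264 h against 24 to 72 h.

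Fitted as a straight line over the 10 arrays from 24 to 264 h, the slope of MXR1 was -0.07 log2 units per 24 h (SE 0.05; limma adjusted p = 0.398) and that of MXR2 -0.09 (SE 0.05; adjusted p = 0.280). Of all rows 5.83% passed downward and 0.611% upward in this fit. The range of levels over these arrays was 1.52 for MXR1 and 1.68 for MXR2, against a median of 1.92 over all rows.

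Whether the genes changed unequally after the start was tested on their ratio. The log2 ratio of MXR1 to MXR2, which does not depend on how an array is centred, averaged -1.22 ± 0.50 (SD, n = 7) at 96 to 264 h and -1.05 ± 0.46 (n = 3) at 24 to 72 h. The difference of -0.17 gave p = 0.642 in a two-sided exact permutation test over 120 arrangements of the arrays, where 0.00833 was the smallest p possible. Over the 10 arrays from 24 to 264 h the levels of the genes had a Pearson correlation of 0.48 and a Spearman correlation of 0.59. Over all 12 arrays these were 0.01 and 0.29. The points share their arrays, and these values are descriptions.

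The third reductase gene, YKL069W, kept within a narrow range. Its level ran from -0.45 at 96 h to 0.75 at 120 h, with -0.31 at 1 h and -0.02 at 0 h, and its difference of 168 to 264 h from 24 to 72 h was -0.17 (interval -0.99 to 0.66). It shared neither the peak of MXR2 at 0 h nor the higher level of MXR1 at 1 h.

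The thioredoxin system supplies the electrons for both enzymes, and none of its 5 genes had a 0 h peak like that of MXR2. TRX1 and TRX2, the cytosolic thioredoxins, stood at 1.29 and 2.17 at 1 h, against 0.21 and 2.29 at 0 h. TRX3, the mitochondrial thioredoxin, stood at -0.85 at 1 h and -0.23 at 0 h. TRR1 and TRR2, the cytosolic and mitochondrial reductases, were at -0.69 and 0.05 at 1 h, against -0.07 and 0.36 at 0 h. None of the 5 was 4-fold different between these samples. Of all rows, 4.15% were at least 4-fold lower at 1 h and 9.55% at least 4-fold higher. Lower at 1 h were 4 of the 5 and higher 1, with a median difference of -0.31, against 0.05 over all rows. After quantile normalization TRX2 was 2.37-fold lower at 1 h and TRX1 1.54-fold higher.

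Later in the fermentation the 5 genes differed in direction and 0 passed limma's test in any window comparison. Among all rows, 3.82% passed downward and 0.43% upward for 168 to 264 h against 24 to 72 h. In the 2 other comparisons 0% of all rows passed. TRX3 was 2.33-fold higher at 168 to 264 h than at 24 to 72 h (0.02 ± 0.72, n = 4, against -1.21 ± 0.64, n = 3; limma adjusted p = 0.161) and was the 1 member of the list with an unadjusted p under 0.05 there. Its lowest level, -1.92 at 24 h, came from a signal 1.09 times the 5th percentile of the array, close to the dim end. TRX1 was 2.16-fold lower (-0.88 ± 1.18 against 0.23 ± 0.29; limma adjusted p = 0.308), with its signals at 96, 240 and 264 h below the 5th percentile of their arrays. TRX2 reached its highest median-centred levels at 144 h (3.83) and 168 h (3.99) and its lowest at 240 h (1.13) and 264 h (1.14). After quantile normalization TRX2 was highest at 144 and 192 h (3.63 at each) and lowest at 24 h (1.34). It then stood at 2.36 at 240 h, the array with the narrowest signal. TRR1 was lowest at 96 h (-2.38) and 120 h (-2.10), again below the 5th percentile, and differed by -1.12 between 96 to 144 h and 24 to 72 h (limma adjusted p = 0.453). TRR2 ran from -1.30 at 24 h to 0.98 at 264 h.

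**Figure D5:**
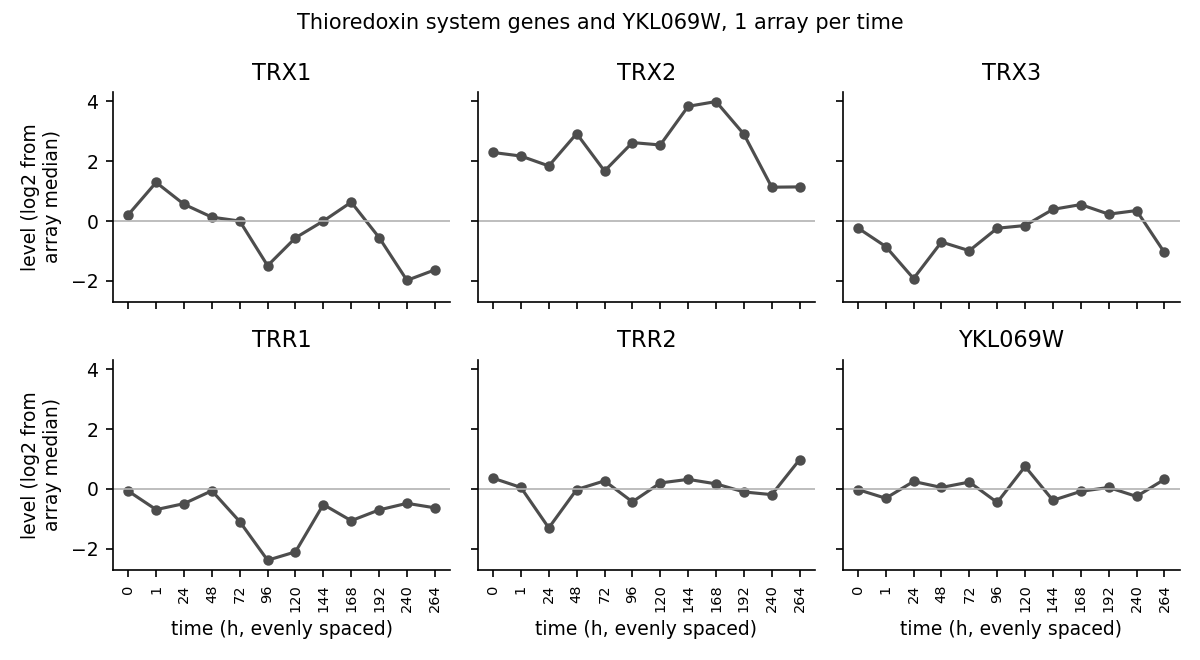
Level (log2 distance from the array median) of the 5 thioredoxin system genes and of YKL069W at each time, 1 array per time. In these median-centred values TRX2 is highest at 168 h (3.99), TRR1 lowest at 96 h (-2.38), and none has the 0 h peak of MXR2.

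Some genes in a list for sulfate assimilation and methionine synthesis fell in the span over which neither reductase gene passed the test. The difference between them and the reductases was not tested. Of the 34 measured genes of sulfate assimilation and methionine synthesis, 6 were lower and 0 higher at 168 to 264 h than at 24 to 72 h in limma, where 3.82% of all rows were lower and 0.43% higher. Whatever their p, 14 of the 34 were higher and 20 lower, with a list median of -0.18 against 0.04 over all rows. MET6, the methionine synthase and the only 1 of these 6 that makes methionine itself, fell 11.5-fold (0.64 ± 0.80, n = 4, against 4.16 ± 0.66, n = 3; limma adjusted p = 0.00414). SAM1 and SAM2, which make S-adenosylmethionine, fell 4.94- and 6.85-fold (SAM1 1.32 ± 0.80 against 3.63 ± 0.43, SAM2 2.36 ± 1.71 against 5.13 ± 0.55), and SAH1, which splits the product of methyl transfer, fell 4.71-fold (1.48 ± 1.44 against 3.72 ± 0.42). The windows overlapped for SAM2 and SAH1, and after quantile normalization the log2 changes of SAM1, SAM2 and SAH1 were -1.67, -1.78 and -1.70, against -2.30, -2.78 and -2.24 median-centred. CYS4, of cysteine synthesis, fell 5.45-fold and SAM3, an S-adenosylmethionine permease, 2.79-fold. STR3, of the cysteine to homocysteine route, had the highest difference of the list, 2.13, without passing, and its signal at 24 h lay below the 5th percentile of the array. Between 1 h and 0 h, MET6 differed by 0.37 log2 units.

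Of the 17 genes of peroxide and superoxide defence, 2 were lower and 0 higher in the same comparison, against the same 3.82% and 0.43% of all rows (list median -0.43). These were TSA1, the main cytosolic peroxiredoxin, 6.91-fold lower (limma adjusted p = 0.0119), and SOD2, the mitochondrial superoxide dismutase, 6.05-fold lower (adjusted p = 0.0145). GPX1, a glutathione peroxidase, was the highest at 0.48. YAP1, the activator of many of these genes, differed by 0.20 (interval -0.88 to 1.27), and between 1 h and 0 h by -1.34 (level -0.05 against 1.29). Of 11 glutathione and glutaredoxin genes 0 passed in this comparison, an unadjusted p under 0.05 being reached by 1 upward and 1 downward, and differences ran from -1.78 for GRX2 to 1.03 for GRX4. Without the array at 24 h 0 of these 8 passed, although the changes stayed close in size (MET6 at -3.38 against -3.53, with a limma adjusted p of 0.0547, and TSA1 at -2.68 against -2.79), and without 48 h only MET6 passed. With the 0 and 1 h arrays in the fit the 8 changes were the same and MET6 was again the 1 to pass. After quantile normalization MET6 and SOD2 passed. The log2 changes of MET6, SOD2, TSA1 and CYS4 were then -3.00, -1.87, -1.76 and -1.85, against -3.53, -2.60, -2.79 and -2.45 median-centred. In the straight-line fit, where 5.83% of all rows passed downward, 12 genes of these lists fell. These were 7 of 34 of sulfate assimilation and methionine synthesis, 4 of 17 of peroxide defence and, of 11 glutathione and glutaredoxin genes, GRX2. MET6 was at -0.49 log2 units per 24 h (limma adjusted p = 0.000246). After quantile normalization 4 of the 12 no longer passed, and without moderation 6 did not. The signals of GRX2 at 96, 240 and 264 h lay below the 5th percentile of their arrays, and with a floor there GRX2 and HOM2, an enzyme of the route to homoserine, no longer passed (limma adjusted p = 0.117 and 0.0650). With the 0 and 1 h arrays in that fit 0 of the 12 passed, and MET6 was at -0.22 (limma adjusted p = 0.228).

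The named genes whose levels were most like those of MXR1 over the 12 arrays, by Pearson correlation among 5486 genes, were TAF5, a subunit of the transcription factor TFIID (0.93), SBA1, a cochaperone of Hsp90 (0.92), ATP2, a subunit of the mitochondrial ATP synthase (0.90), VMA16, of the vacuolar proton pump (0.89) and MZM1, an assembly factor of respiratory complex III (0.88). Without the 2 arrays on which MXR1 was farthest from its median (1 and 48 h) their correlations were 0.79, 0.84, 0.76, 0.64 and 0.79. They then ranked 67, 14, 107, 387 and 63 among the 5486 genes. MXR2 was most like YME2, a mitochondrial inner membrane protein (0.88), YML039W, a retrotransposon gene (0.74), POL4, a DNA polymerase (0.73), YDR131C (0.71) and FIG2 (0.71). Without the 0 and 264 h arrays these were 0.54, 0.51, 0.58, -0.01 and -0.44, and the 5 genes then ranked 319, 392, 250, 2708 and 4962 among the 5486. The likenesses of YDR131C and FIG2 thus rested on those arrays, and those of YME2, YML039W and POL4 rested on them in part. Of these arrays, that at 0 h chose MXR2. The genes share the arrays and their scaling, and the correlations are descriptions.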

How the data were processed

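The deposited values are whole-number intensities on a linear scale, for 6084 probes on each of 12 arrays. The scanner, background correction and scaling by the authors are not given in the sources used here. Of the probes, 5523 had 1 gene symbol in the platform annotation, 0 several and 561 none. The 3 intensities of 0 were treated as missing, values were log2 transformed, the 32 symbols with several probes were averaged, and array medians were set to 0, which left 6051 rows with values on at least 9 arrays.

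Window comparisons and slopes were fitted with limma 3.58.1 under R 4.3.3 (functions lmFit and eBayes, 10 arrays from 24 to 264 h, 7 residual and 9.59 prior degrees of freedom in the window fit), two-sided, with Benjamini-Hochberg adjustment over all rows and a threshold of 0.05. The 0 and 1 h arrays were left out of this fit, since the genes were chosen on that difference. The fits were also run on simulated data with independent normal values and known changes. Those data had no shared array effects and no unequal spread between arrays, so they do not show how the fits behave under these. The members, gene lists and tests were chosen with earlier results of these data known. Of 69 list genes 68 were measured. Text names were limited to the 2 reductase genes, the 5 most correlated genes of each, 8 fixed genes and list members that passed or were highest or lowest in their list. FIG2, in the comparison of 0 h gaps, came after its values were seen. Alternatives were other scalings, normexp background correction with an offset of 50, a floor at the 5th percentile, removal of the dimmest 25% of genes, all 12 arrays, other windows, no moderation and leaving out each array. The number of arrays limits the precision. Figures were drawn with matplotlib 3.10.9.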

Additional observations from a re-analysis of the deposited data

How the results depend on the processing

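The window changes and slopes of MXR1 and MXR2 stayed on the same side of the threshold under all alternatives run except the values as deposited, without centring, where all rows shifted by a median of -2.06 log2 units between 24 to 72 h and 168 to 264 h. There MXR1 changed by -2.59 (limma adjusted p = 0.0297) and MXR2 by -2.53 (0.0325), with slopes of -0.33 and -0.35, MXR2 changed by -1.04 between 24 to 72 h and 96 to 144 h, and 2448 rows (window) and 2116 (slope) were called. The difference between 1 h and 0 h was then 2.25 for MXR1 and -3.31 for MXR2, and for MXR2 -5.70 with equal median absolute deviations and -5.37 with normexp. Rows called at 168 to 264 h against 24 to 72 h, 257 in all, numbered 5 with all 12 arrays and 0 without moderation, and the 390 slope calls 3 and 95. With windows of 24 to 96, 120 to 168 and 192 to 264 h, 21 rows were called between the first pair and 127 between the last. Without single arrays the called rows ran from 0 (without 24 h) to 479 (without 168 h) for 168 to 264 h against 24 to 72 h, from 0 to 132 for 96 to 144 h against 24 to 72 h, from 0 to 30 for 168 to 264 h against 96 to 144 h and from 131 to 513 for slopes. The change between 24 to 72 h and 96 to 144 h ran from -0.40 to 0.05 for MXR1 and from -0.20 to 0.27 for MXR2, and the change of the MXR1 to MXR2 ratio from -0.43 to 0.00. The cause was not tested. No paired analysis was possible, since each time had 1 array and the labels name no other culture or treatment.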
